A study of Mus musculus with 25 samples.

Results

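RAB genes encode small GTPases that direct traffic between the membrane compartments of a cell. The members described here are the genes whose mouse symbol is Rab followed by a number and at most one letter and one digit, and whose mean normalised read count over all 25 libraries was at least 10. The members were thus chosen by mean level, which is not a result here. That rule kept 49 of the 59 RAB symbols in the table, among 14141 genes with such a mean and 48795 genes in all. The libraries came from sorted Thy1.2+CD44- thymocytes, labelled DN3 and DN4 (the double negative stages at which the pre-T-cell receptor is first used), of mice aged 7 to 8 weeks. Control mice (HET) were Wnk1fl/+ and WNK1-deficient mice (KO) were Wnk1fl/fl, and both carried CD2Cre and Rag1KO. CD2-Cre deletes the floxed allele in cells of the lymphoid lineage, so control thymocytes keep 1 intact copy of Wnk1, a kinase gene of ion transport and of T-cell adhesion and migration. Without RAG1 no T-cell receptor chain is rearranged, and thymocytes stop at the DN3 stage until a CD3 signal is supplied. Mice were injected with 150 µg of antibody to CD3ε and killed 3, 24 or 48 hr later, and uninjected mice gave the 0 hr group. Each group held 3 mice, and the KO group at 0 hr held 4.

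A RAB protein is active and bound to a membrane when it holds GTP, and inactive when it holds GDP. Exchange factors load GTP, GTPase-activating proteins end the active state, a prenyl group anchors the protein in the membrane, and effectors such as tethers and motors carry out the transport step. Each RAB marks particular compartments, from the endoplasmic reticulum and Golgi to early, recycling and late endosomes, lysosomes and secretory vesicles, and in T cells they serve receptor recycling and the delivery of cytolytic granules.

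Promoter windows of a few members show the DNA ahead of genes that behaved differently here. RefSeq windows on GRCm38.p6, 250 bases before a transcription start, were found for 40 of the 49 members, in 49 windows. The 4 below are from the member with the largest genotype difference (Rab39b), one that fell after the CD3 signal in both genotypes (Rab20), one that rose in both (Rab10), and one that passed no test (Rab5c). Capitals mark CpG dinucleotides, and all are written 5′ to 3′ in the direction of transcription. Rab39b lies at chrX:75578232-75578481 (minus strand), Rab20 at chr8:11478641-11478890 (minus strand), Rab10 at chr12:3309970-3310219 (minus strand) and Rab5c at chr11:100738216-100738465 (minus strand).
Rab39b: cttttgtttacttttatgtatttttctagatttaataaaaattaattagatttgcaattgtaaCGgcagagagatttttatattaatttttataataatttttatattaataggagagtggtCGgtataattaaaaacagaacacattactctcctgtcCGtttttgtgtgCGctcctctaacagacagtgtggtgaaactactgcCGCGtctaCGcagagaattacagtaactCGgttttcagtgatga
Rab20: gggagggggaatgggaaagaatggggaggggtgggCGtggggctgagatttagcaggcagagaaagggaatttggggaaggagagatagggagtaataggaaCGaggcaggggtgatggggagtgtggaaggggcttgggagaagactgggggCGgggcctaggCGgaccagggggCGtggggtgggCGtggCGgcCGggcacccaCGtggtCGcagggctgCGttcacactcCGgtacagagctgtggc
Rab10: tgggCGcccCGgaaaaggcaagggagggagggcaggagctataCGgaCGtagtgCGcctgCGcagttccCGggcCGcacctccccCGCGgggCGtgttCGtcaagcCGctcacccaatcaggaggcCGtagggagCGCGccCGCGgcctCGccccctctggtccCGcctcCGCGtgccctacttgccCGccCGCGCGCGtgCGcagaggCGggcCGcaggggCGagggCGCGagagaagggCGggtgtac
Rab5c: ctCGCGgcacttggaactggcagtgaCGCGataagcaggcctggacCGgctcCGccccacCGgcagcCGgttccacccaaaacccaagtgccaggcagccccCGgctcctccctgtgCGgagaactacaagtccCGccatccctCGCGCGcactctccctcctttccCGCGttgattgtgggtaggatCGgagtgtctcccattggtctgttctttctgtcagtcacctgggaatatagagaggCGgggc
The Rab39b window was 31.6% G or C with 8 CpG. It was the lowest of the 49 member windows in GC, and 2.15% of all 32807 windows of this length in the RefSeq table were lower. The Rab20, Rab10 and Rab5c windows were 65.2%, 74.8% and 63.2% G or C, with 12, 34 and 18 CpG. Over the member windows the median was 61.6% G or C with 18 CpG, against 52.4% with 6 CpG over all windows. Motifs were searched on both strands as plain letters. The cyclic AMP response element TGACGTCA was in 1 of 49 member windows (2.04%, Rab5a) and in 1.55% of all windows, its core TGACGT in 10.2% and 6.47%, and the AP-1 site TGANTCA in 2.04% (Rab34) and 6.75%. The E-box CACGTG was in 10.2% of member windows, Rab20 among them, and in 6.02% of all windows, the E-box CAGGTG in 14.3% and 17.2%, and the CCAAT box CCAAT in 40.8% and 33.8%. The EGR site GCGTGGGCG was in 0 member windows and in 0.536% of all windows. A match says that the letters are there, and use of these start sites was not measured.

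The libraries held 22527777 to 57304830 reads counted on genes. Wnk1 itself was lower in KO at each time, with a log2 difference of -0.83 to -1.06 (adjusted p 0.00555 to 0.0104). All HET libraries at 0 hr were sequenced in lane 1 and all KO libraries at 0 hr in lane 2, and within that time the 2 cannot be told apart. All libraries at 3 and 24 hr were in lanes 3 and 4, so their comparisons with 0 hr also compare lanes. Only the KO group at 48 hr had libraries in both pairs of lanes, through its replicate 3 in lane 3. Mice at 0 and 48 hr were female by their transcripts (Xist 10918 to 45584) and mice at 3 and 24 hr male (Xist at most 13.8), so the 3 and 24 hr comparisons with 0 hr also compare sexes, and the part of sex was not tested. The labelled cells were checked by 10 markers of DN3 and DN4 thymocytes, whose summed level was 93314.9 to 641196.5 in every library. Of the B cell genes, Ms4a1 and Pax5 were at 1.4 or less in every library, while Cd79b was 2219.0 to 2603.6 in HET and 803.6 to 1160.1 in KO at 0 hr, and its part in the genotype differences was not tested. In all, 3 libraries stood apart from their groups: HET replicate 3 at 3 hr had Cd8a at 12652.5 against at most 432.1 in any other library, and HET replicate 3 at 24 hr and KO replicate 3 at 48 hr kept Rag2 at 840.5 and 145.2 against at most 31.6 and 23.6 in the other mice of their groups. In bulk samples such as these, fewer cells of a type and less RNA per cell cannot be told apart.

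Together the 49 members made up 0.230 to 0.316% of normalised counts in each library. Levels can be compared between genes only per length, and were divided by the exonic length of each gene. On that scale Rab27a, which docks lytic granules at the plasma membrane, had a mean of 3292 normalised counts per kb over the 25 libraries, and Rab5c, a GTPase of early endosomes, 3291. Rab1b (ER to Golgi, 3023), Rab7 (late endosome, 2805), Rab11b (recycling endosome, 2699) and Rab10 (transport to the cell surface, 2225) followed. Rab27a ranged from 2069 to 5268 per kb and Rab5c from 2553 to 4295, so these neighbours overlapped. The lowest members were Rab7b at 4.07, Rab39b at 5.64 and Rab30 at 6.66 per kb. For 25 of the 49 the highest of the 8 group means was under 2 times the lowest, and for 13 it was under 1.5 times. Rab7 was the steadiest, between 6471 (HET, 0 hr) and 8131 (HET, 3 hr) normalised counts, a ratio of 1.26. At the other end, leaving out Rab39b and Rab30, whose lowest group means were under 1 (0 and 0.70, against highest means of 49.2 and 27.3), Rab44 spanned 184-fold, Rab19 44.7-fold, Rab38 32.4-fold, Rab27b 26.1-fold and Rab34 23-fold.

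**Figure D1:**
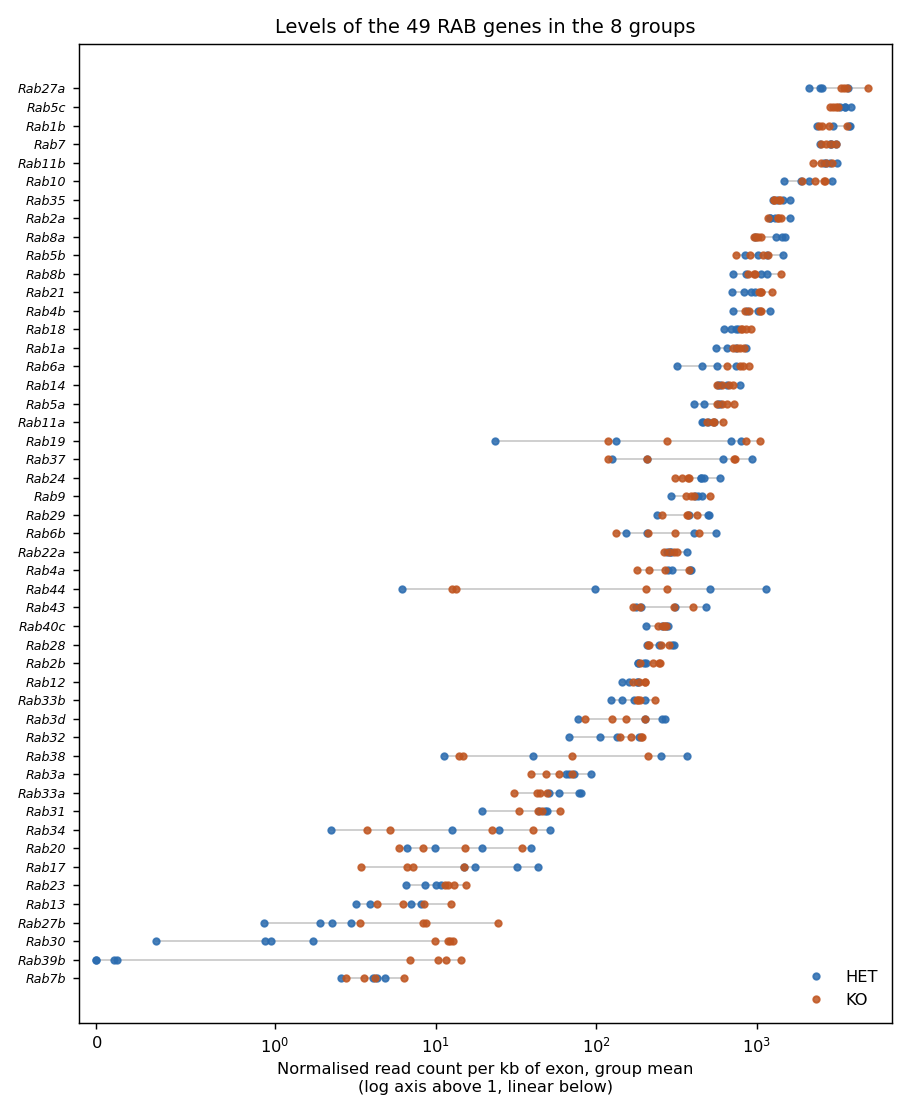
Group means of normalised read count per kb of exon for the 49 RAB genes, ordered by their mean over all libraries (horizontal axis, log above 1 and linear below, blue for the 4 HET groups and orange for the 4 KO groups). Rab27a and Rab5c lead near 3290 per kb, most genes keep their 8 group means close together, and every KO mean of Rab39b and Rab30 lies far above every HET mean.

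Just inside the mean of 10 were Rab7b at 11.1, Rab13 at 11.5 and Rab30 at 14.1, and just outside were Rab15 at 7.29, Rab26 at 6.28 and Rab36 at 5.06. The other RAB genes left out were Rab42 (4.88), Rab39 (4.49), Rab25 (2.44), Rab40b (2.19), Rab3b (1.23), Rab9b (0.0838) and Rab3c (0). Rab39b, Rab30 and Rab13 had a mean under 10 in one of the genotypes, so they were kept only through the other, and their difference between genotypes is no support for a pattern in the family.

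To ask how loss of WNK1 changed these genes, KO and HET thymocytes were compared at each time with limma on log2(normalised count + 1), with p-values adjusted over all 14141 genes. At 0 hr 12 members were higher and 6 lower in KO, 36.7% of the 49, where 22.1% of all genes tested passed (11% higher and 11.1% lower). At 3 hr 3 were higher and 1 lower (8.16%), against 9.18% of all genes (5.75% and 3.43%). At 24 hr 4 were higher and 2 lower (12.2%), against 12.5% (7.03% and 5.45%). At 48 hr 5 were higher and 3 lower (16.3%), against 13.1% (6.13% and 6.95%). Leaving out Rab39b, Rab30 and Rab13, which were kept only through one genotype, 16, 2, 4 and 6 of 46 members passed at the 4 times (34.8%, 4.35%, 8.7% and 13%). The median log2 difference over the members was 0.0237, -0.0113, 0.122 and 0.049 at the 4 times, against -0.0022, -0.0193, 0.00313 and -0.0131 over all genes tested. In all, 20 members passed in at least 1 of the 4 comparisons, Rab39b and Rab30 among them, and none of the 20 changed direction. The matching share of all genes was not counted, so the 20 are a description only. With sequencing lane as a term in the fit, which takes the lane difference from the later times, 4 members passed at 0 hr (Rab39b, Rab30, Rab6a and Rab33b), 3 at 3 hr, 8 at 24 hr and 2 at 48 hr, where that fit called 4.7%, 7.78%, 15% and 3.83% of all genes. None of the other members called at 0 hr passed with that term, Rab27a, Rab19, Rab21, Rab23, Rab44 and all those lower in KO among them. At 48 hr no member kept through both genotypes passed, so the calls of Rab6a, Rab27a, Rab27b, Rab24, Rab8a and Rab3d were lost. The part of lane in the 0 hr differences was not tested beyond that fit. Without HET replicate 1 or 2 at 0 hr the count of 18 became 10 or 11, and without HET replicate 2 or KO replicate 1 at 48 hr the count of 8 became 5. Fewer genotype calls at 3 than at 0 hr do not show that the difference itself changed, and the test of that change is given below.

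**Figure D2:**
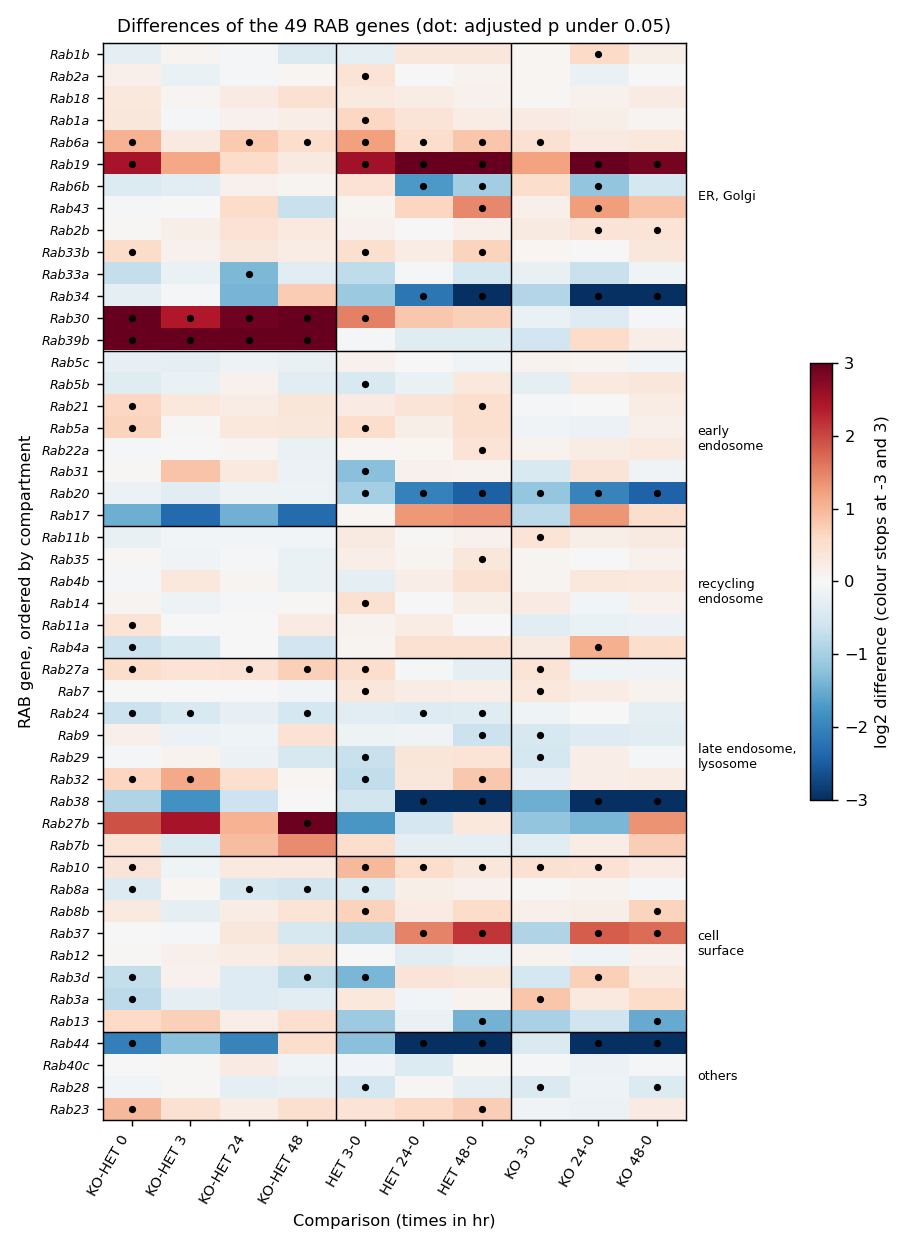
Log2 difference of each of the 49 RAB genes (rows, by compartment and then by level per kb) in 10 comparisons (columns: KO against HET at 4 times, then HET and KO at 3, 24 and 48 hr against 0 hr), red for higher and blue for lower, with a dot where adjusted p was under 0.05. Rab39b and Rab30 are dotted in all 4 genotype columns, and Rab44, Rab38 and Rab34 are the darkest blue at 24 and 48 hr in both genotypes.

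Among the 14 RAB genes of the ER and Golgi, 5 were higher in KO before the CD3 signal, then 2, 3 and 3 at 3, 24 and 48 hr, and 1 was lower at 24 hr. Rab39b and Rab30, which were kept only through KO, are in each of these counts of higher genes, and without them 3, 0, 1 and 1 were higher. Over all genes tested 11%, 5.75%, 7.03% and 6.13% were higher at the 4 times, and 5.45% were lower at 24 hr. The counts by compartment, here and below, are descriptions only. Rab39b (ENSMUSG00000031202, chrX:75572045-75578231, GRCm38.p6), known as an X-linked gene of neuronal membrane traffic, showed the largest genotype difference. In HET its normalised count was 1.17, 0 and 0 at 0 hr, 0, 0.989 and 0 at 3 hr, and 0 in all 3 mice at 24 and at 48 hr. In KO it was 19.4, 25.3, 43.6 and 52.1 at 0 hr, 35.6, 11.4 and 23.7 by 3 hr, then 47.5, 39.7 and 60.3 after 24 hr, with 44.5, 52.2 and 22.2 after 48 hr. Every KO library was thus above every HET library, in female and in male mice alike. Summed over a group, HET had 1 read at 0 hr and 1 at 3 hr, and KO had 163 and 86. The ratio of levels was 102 (95% exact interval 18.1 to 4073) at 0 hr and 76.8 (13.4 to 3068) at 3 hr. At 24 and 48 hr HET had 0 reads, and set against a limit of 3 reads over the group KO was at least 47.7-fold and at least 46.7-fold higher. These intervals and limits cover counting error only. The adjusted p was 9.2e-07, 2.4e-05, 6.7e-07 and 1.6e-06 at 0, 3, 24 and 48 hr, and within lanes 3, 4 and 1 KO stayed above HET by 4.49 to 5.94 on the log2(count + 1) scale.

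Rab30 (ENSMUSG00000030643, chr7:92741637-92844535), a GTPase of the Golgi, followed the same order. HET had 0, 1.06 and 1.06 at 0 hr, 4.91, 2.97 and 3.14 by 3 hr, then 0.822, 3.33 and 1.84 after 24 hr, with 4.49, 0.724 and 1.00 after 48 hr. KO had 24.9, 26.1, 23.9 and 34.3 at 0 hr, 31.7, 32.9 and 11.8 by 3 hr, then 23.7, 24.5 and 14.4 after 24 hr, with 26.3, 25.1 and 27.1 after 48 hr. The lowest KO library, at 11.8, was above the highest HET library, at 4.91. The ratio of levels from summed reads was 39.3 (10.7 to 328), 6.5 (3.44 to 13.5), 12.4 (5.03 to 39.6) and 14.2 (6.29 to 39.6) at the 4 times, with adjusted p of 3.9e-06, 0.0034, 5.3e-04 and 1.9e-04. Rab39b and Rab30 together had few reads even in KO, 59 to 163 per gene and group.

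Rab6a (ENSMUSG00000030704, chr7:100607575-100641268), which returns membrane from endosomes through the Golgi to the ER, was abundant in both genotypes and higher in KO. At 0 hr HET had 1072, 1161 and 1308 and KO 2753, 2122, 2300 and 2555, with no overlap. The log2 difference was 1.04 ± 0.14 (SE, adjusted p = 2.8e-05), 0.78 ± 0.15 at 24 hr (adjusted p = 0.0016) and 0.53 ± 0.15 at 48 hr (adjusted p = 0.023). At 3 hr HET had 2362, 2887 and 3097 and KO 3474, 3315 and 3176, which did not overlap but differed by 0.26 and did not pass. At 48 hr the call was lost without HET replicate 2 (adjusted p = 0.125) or KO replicate 1 (adjusted p = 0.13), and with the lane term.

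Rab19 (ENSMUSG00000029923, chr6:39380709-39390666), a little-described Golgi GTPase, was low before the CD3 signal. At 0 hr HET had 45.7, 51.7 and 12.7 and KO 127, 153, 224 and 238, a log2 difference of 2.48 ± 0.46 (adjusted p = 7.2e-04), and the genotypes did not overlap. At 3, 24 and 48 hr the differences were 1.16, 0.55 and 0.26, and none passed. With the lane term the 0 hr call was lost. Rab33b, a Golgi GTPase that binds the autophagy protein ATG16L1, was 391, 418 and 365 in HET and 598, 576, 487 and 629 in KO at 0 hr. Its difference was 0.54 ± 0.16 (adjusted p = 0.019), and the call was lost without HET replicate 1 (adjusted p = 0.0627), HET replicate 3 (adjusted p = 0.0663) or KO replicate 4 (adjusted p = 0.0587). Its paralog Rab33a went the other way at 24 hr, when HET had 92.9, 96.5 and 83.5 and KO 46.7, 30.6 and 30.1. That difference was -1.35 ± 0.32 (adjusted p = 0.0076), it held in lanes 3 and 4 (-1.12 and -1.62), and at 0, 3 and 48 hr Rab33a did not pass.

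Of 8 RAB genes of the early endosome, 2 were higher in KO at 0 hr and none passed at 3, 24 or 48 hr by limma. Over all genes tested 11% were higher and 11.1% lower at 0 hr. Rab5a, the GTPase of early endosome fusion, was 989, 986 and 912 in HET and 2004, 1425, 1249 and 1496 in KO at 0 hr, and Rab21, which acts in integrin uptake, was 1175, 1189 and 1453 against 2201, 2006, 1796 and 1791. Neither pair of groups overlapped. The log2 differences were 0.66 ± 0.18 (adjusted p = 0.013) and 0.62 ± 0.15 (adjusted p = 0.0067), and the Rab5a call was lost without KO replicate 1 (adjusted p = 0.0535). With the lane term the Rab5a and Rab21 calls were lost. Of 6 recycling endosome genes 1 was higher and 1 lower at 0 hr, and none passed later. Rab11a, of the slow recycling route, was 1249, 1402 and 1473 in HET and 2133, 1930, 1594 and 1693 in KO (0.41 ± 0.13, adjusted p = 0.023). Rab4a, of the fast recycling route, was 558, 464 and 447 in HET and 358, 281, 348 and 271 in KO (-0.64 ± 0.21, adjusted p = 0.033). Each of these 2 calls was lost without any of 4 libraries: for Rab11a HET replicates 1 and 2 and KO replicates 1 and 2 (adjusted p = 0.0574 to 0.125), and for Rab4a HET replicates 1 and 2 and KO replicates 2 and 4 (adjusted p = 0.0694 to 0.149).

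Among the 9 RAB genes of late endosomes, lysosomes and lysosome-related organelles, Rab27a, Rab32 and Rab27b were higher in KO and Rab24 was lower. Rab27a (ENSMUSG00000032202, chr9:73044810-73097623) is needed for the release of lytic granules. At 0 hr it was 7036, 8430 and 7283 in HET and 11232, 9968, 11143 and 11232 in KO, and at 48 hr 6146, 6251 and 6330 against 12869, 8569 and 9604. The genotypes did not overlap at any of the 4 times, and the log2 differences were 0.53 ± 0.13 (adjusted p = 0.0074), 0.42 ± 0.14 (not past the threshold), 0.43 ± 0.14 (adjusted p = 0.049) and 0.71 ± 0.14 (adjusted p = 0.0026). The 24 hr call was lost without any 1 of its 6 libraries (adjusted p = 0.0578 to 0.131). With the lane term the calls at 0 and 48 hr were lost. Natural killer cells also use this granule machinery. Of 5 of their genes, the granule protease gene Gzma was 4982.8 to 6980.1 in HET and 14573.1 to 25640.5 in KO at 0 hr, and 9202.4 to 18721.3 in HET and 3696.2 to 8988.1 in KO at 24 hr, when it was lower in KO. The other 4 were higher in KO at 24 hr: Ncr1 was 59.0 to 117.7 in KO and 4.9 to 15.0 in HET, Klrb1c 120.6 to 270.7 and 24.8 to 63.2, Eomes 22.3 to 84.6 and 1.6 to 8.3, and Tyrobp 116.6 to 176.5 and 34.5 to 94.8. Before the CD3 signal Ncr1, Klrb1c and Tyrobp overlapped between genotypes, and Eomes was at 3.1 or less in every library of that time. By 3 hr each of the 5 genes except Klrb1c was higher in KO without overlap. After 48 hr only Klrb1c was higher in KO without overlap, and the other 4 overlapped. The part of such cells in the Rab27a differences was not tested.

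Rab27b, a paralog of secretory granules on chromosome 18, was far lower. At 48 hr it was 50.5, 25.3 and 19.02 in HET and 252, 114 and 420 in KO (2.94 ± 0.89, adjusted p = 0.033). The 2 groups did not overlap, and the call was lost without HET replicate 2 (adjusted p = 0.0982), HET replicate 3 (adjusted p = 0.107), KO replicate 1 (adjusted p = 0.0834) or KO replicate 3 (adjusted p = 0.128), the last of which stood apart. At 3 hr it was 0.981, 21.8 and 7.33 in HET and 238, 17.1 and 14.1 in KO. The high library, KO replicate 1, also had the myeloid gene Itgam at 462.8 against 45.7 and 36.3 in the other 2 mice. Other myeloid genes went the other way: Csf1r (56.5), Adgre1 (47.2), Cd68 (84.4) and Spi1 (37.9) were lowest in that library of the 3 KO mice. Lyz2 (384.7) and Itgax (46.4) lay between the other 2 mice, and Siglech was at most 0.8. The part of such cells was not tested. Rab32, a GTPase of lysosome-related organelles, was 197, 249 and 226 in HET and 361, 393, 322 and 318 in KO at 0 hr, and 185, 172 and 73.3 against 368, 284 and 241 at 3 hr. The differences were 0.64 ± 0.23 (adjusted p = 0.0499) and 1.14 ± 0.24 (adjusted p = 0.0047). The first was lost without any 1 of its 7 libraries (adjusted p = 0.0596 to 0.186), and the second was 0.71 (adjusted p = 0.0187) without HET replicate 3 at 3 hr, which stood apart. Rab24, an atypical RAB linked to autophagy, was lower in KO in every library at each time. At 0 hr it was 1233, 1115 and 949 in HET and 642, 604, 808 and 754 in KO (-0.65 ± 0.12, adjusted p = 6.0e-04), at 3 hr the difference was -0.45 ± 0.13 (adjusted p = 0.027) and at 48 hr -0.54 ± 0.13 (adjusted p = 0.0079). With the lane term these 3 calls were lost (adjusted p = 0.0776, 0.147 and 0.204). The 3 hr call was lost without HET replicate 1 or 2 or KO replicate 1 or 2 (adjusted p = 0.0808 to 0.116), and at 24 hr the difference, -0.26, did not pass.

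Of the 8 RAB genes of exocytosis and the cell surface, 1 was higher and 3 were lower in KO at 0 hr, none passed at 3 hr, and 1 and 2 were lower at 24 and 48 hr. Over all genes tested 11% were higher and 11.1% lower at 0 hr, and 5.45% and 6.95% were lower at 24 and 48 hr. Rab8a (ENSMUSG00000003037, chr8:72161200-72181366), which carries cargo from the Golgi to the plasma membrane and cilium, was 6728, 6028 and 5679 in HET and 4458, 4486, 5081 and 4465 in KO at 0 hr. At 24 hr it was 7131, 7817 and 6028 against 4981, 4844 and 5157, and at 48 hr 5675, 7334 and 7075 against 4376, 5016 and 4201. The groups did not overlap at these 3 times, and the log2 differences were -0.41 ± 0.12 (adjusted p = 0.020), -0.48 ± 0.13 (adjusted p = 0.019) and -0.56 ± 0.13 (adjusted p = 0.0073). The first was lost without HET replicate 1 (adjusted p = 0.112) or 2 (adjusted p = 0.0521), and the second without HET replicate 1 or 2 or KO replicate 1 or 2 (adjusted p = 0.0558 to 0.0745). With the lane term the calls at 0 and 48 hr were lost (adjusted p = 0.520 and 0.107) and that at 24 hr was kept (adjusted p = 0.033). At 3 hr HET had 5135, 4386 and 4095 and KO 4425, 4287 and 5622, and the genotypes overlapped. Rab8b, the paralog, did not pass at any time, with differences of 0.29, -0.27, 0.22 and 0.41.

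Rab3a and Rab3d, GTPases of regulated secretion, were both lower in KO at 0 hr. Rab3d was 775, 830 and 928 in HET and 373, 617, 639 and 464 in KO (-0.72 ± 0.20, adjusted p = 0.016), and Rab3a was 150, 133 and 171 against 81.6, 89.9, 101 and 78.4 (-0.78 ± 0.27, adjusted p = 0.040). Neither overlapped between genotypes. Rab3d passed again at 48 hr (-0.76 ± 0.22, adjusted p = 0.026) with 891, 1254 and 1076 in HET and 591, 832 and 505 in KO. The Rab3a call was lost without HET replicate 1, 2 or 3 or KO replicate 1, 2 or 4 (adjusted p = 0.0642 to 0.117). The Rab3d call was lost at 0 hr without HET replicate 3 (adjusted p = 0.0583) or KO replicate 1 (adjusted p = 0.0618), and at 48 hr without HET replicate 2 or 3 or KO replicate 1 or 3 (adjusted p = 0.0688 to 0.126). With the lane term both Rab3d calls were lost (adjusted p = 0.288 and 0.323). Rab10, a relative of Rab8 that serves the same surface route, was instead higher in KO at 0 hr, at 4728, 5080 and 5816 against 7288, 6710, 6216 and 6844 (0.38 ± 0.11, adjusted p = 0.016). That call was lost without HET replicate 1 (adjusted p = 0.104), HET replicate 2 (adjusted p = 0.0613) or KO replicate 1 (adjusted p = 0.0513).

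Of the remaining 4 members, Rab23, a negative regulator of Hedgehog signalling, and Rab44, a large RAB with a calcium-binding domain, passed at 0 hr. Rab23 was 39.8, 64.4 and 59.2 in HET and 127, 92.9, 99.96 and 108 in KO (0.98 ± 0.23, adjusted p = 0.0039). Rab44 (ENSMUSG00000064147, chr17:29114128-29148980) was 4522, 4609 and 4926 in HET and 1256, 1190, 1053 and 1012 in KO, so every control library was far above every KO library. Its log2 difference was -2.06 ± 0.64 (adjusted p = 0.026). The SE is shared over groups, one of which is wide (72.3, 146 and 1003 in HET at 24 hr), and the call was lost without HET replicate 1 (adjusted p = 0.0743), 2 (adjusted p = 0.0696) or 3 (adjusted p = 0.0622) or KO replicate 4 (adjusted p = 0.057). Without the 3 libraries that stood apart it was the same size with adjusted p = 6.9e-05. With the lane term the Rab23 and Rab44 calls were lost. Genes of 2 other kinds were summed at 0 hr. The 10 DN3 and DN4 markers summed to 568469.1 to 641196.5 in HET and 343045.3 to 395958.7 in KO. The 8 myeloid and dendritic genes summed to 2022.3 to 2598.9 in HET and 646.7 to 1376.9 in KO. Most of that was Lyz2, at 1654.2 to 2202.9 and 407.1 to 839.6. Itgam was lower in KO too, at 26.4 to 37.0 against 4.2 to 8.6. Csf1r, Adgre1, Cd68, Spi1 and Itgax overlapped between genotypes, and Siglech was at 4.9 or less. Their part in the difference was not tested.

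**Figure D3:**
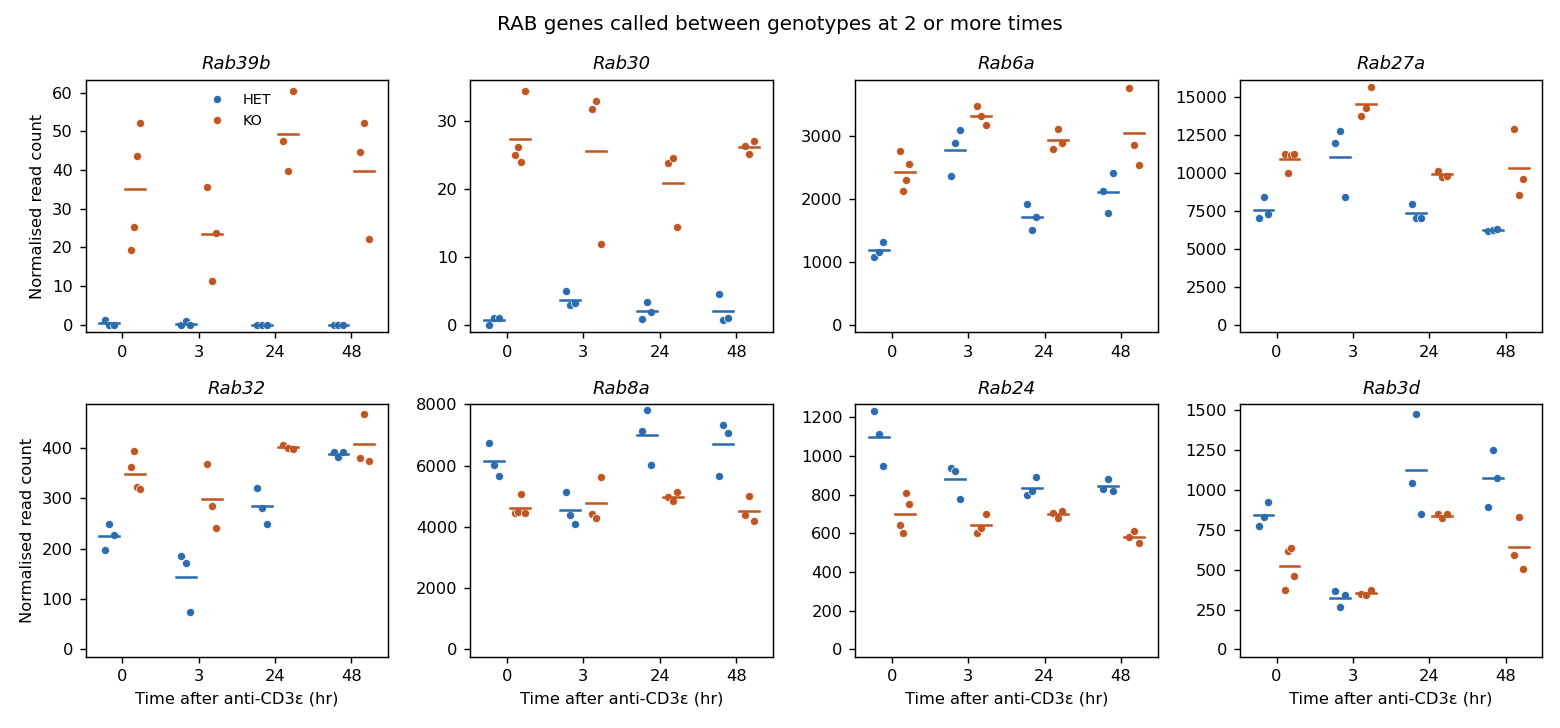
Normalised read count (vertical axis, linear) of the 8 RAB genes that differed between genotypes at 2 or more times, against time after anti-CD3ε in hr, with 1 point per mouse (HET blue, KO orange) and a bar at each group mean. Rab39b and Rab30 sit near 0 in every HET group and between 11.4 and 60.3 in KO, Rab6a, Rab27a and Rab32 lean to KO, and Rab8a, Rab24 and Rab3d lean to HET.

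To ask how the CD3 signal changed the same genes, each time was compared with 0 hr within a genotype. The comparisons of 1 genotype share its 0 hr mice. In HET 12 members rose and 8 fell by 3 hr, where 37% of all genes passed (18.4% up and 18.5% down). By 24 hr 4 rose and 6 fell, where 33.9% passed (17% up and 16.9% down), and by 48 hr 11 rose and 8 fell, where 42.4% passed (21.6% up and 20.8% down). In KO 6 rose and 4 fell by 3 hr, where 24.7% of all genes passed (13.3% up and 11.3% down). By 24 hr 8 rose and 5 fell, where 30.4% passed (16% up and 14.3% down), and by 48 hr 4 rose and 6 fell, where 26.8% passed (14.3% up and 12.5% down). As shares of the 49 members these were 40.8%, 20.4% and 38.8% in HET and 20.4%, 26.5% and 20.4% in KO, below the share of all genes except in HET by 3 hr. The members' median log2 change was between -0.051 and 0.169 in the 6 comparisons. In all 38 members passed in at least 1 of them, and 7 passed in none of the 10 comparisons of either kind: Rab12, Rab17, Rab18, Rab40c, Rab4b, Rab5c and Rab7b. The matching shares of all genes were not counted, so the 38 and the 7 are descriptions only. At 24 hr 8 members passed in both genotypes, each in the same direction, which is 8 of the 10 in HET and 8 of the 13 in KO. Over all genes tested, those that passed in both made up 57.8% of the HET and 64.5% of the KO calls at 24 hr, and 99.5% of them had the same direction. With lane as a term the 6 counts were 6, 8 and 16 in HET and 0, 6 and 4 in KO, where that fit called 18.2%, 15.1% and 37.7% of all genes in HET and 1.41%, 8.87% and 6.36% in KO. For 3 and 24 hr that fit ties the lanes of those times to the 0 hr lanes only through KO replicate 3 at 48 hr, which stood apart. Without HET replicate 1 at 0 hr the counts in HET became 12 at 3 hr and 12 at 48 hr. In KO they became 4 or 3 at 3 hr without replicate 2 or 3 of that time, 6 at 48 hr without replicate 1 of that time, and 18 at 48 hr without the 3 libraries that stood apart.

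The large falls were in Rab44, Rab38, Rab34 and Rab20. Rab44 went from 4522, 4609 and 4926 at 0 hr in HET to 3105, 1894 and 1274 by 3 hr, then 72.3, 146 and 1003 after 24 hr, with 34.8, 14.5 and 27.03 after 48 hr. In KO it went from 1256, 1190, 1053 and 1012 to 688, 1095 and 748 by 3 hr, then 64.5, 42.8 and 57.7 after 24 hr, with 25.6, 13.9 and 116 after 48 hr. Both genotypes thus ended with counts from 13.9 to 116, far below every 0 hr library. The log2 change was -4.40 ± 0.69 at 24 hr (adjusted p = 4.8e-05) and -7.55 ± 0.69 at 48 hr (adjusted p = 3.7e-08) in HET, and -4.35 ± 0.64 (adjusted p = 2.5e-05) and -4.97 ± 0.64 (adjusted p = 1.1e-05) in KO. The high libraries at 24 and 48 hr, at 1003 and 116, were the HET and KO replicates 3 that kept Rag2, and without the 3 libraries that stood apart the changes were -5.49 in HET at 24 hr and -5.82 in KO at 48 hr.

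Rab38, which with Rab32 supplies melanosomes and other lysosome-related organelles, was 592, 613 and 412 at 0 hr in HET, 238, 429 and 459 by 3 hr, then 5.75, 39.9 and 132 after 24 hr, with 12.3, 16.7 and 21.02 after 48 hr. In KO it was 578, 227, 235 and 205, then 101, 130 and 79.2, then 31.2, 12.2 and 22.3, then 14.8, 6.61 and 40.6. No library at 24 or 48 hr reached its own genotype's 0 hr range. The changes were -4.0 ± 0.73 and -4.94 ± 0.73 in HET and -3.72 ± 0.68 and -4.05 ± 0.68 in KO at 24 and 48 hr (adjusted p 1.5e-05 to 2.6e-04), and HET at 24 hr was -5.00 without its replicate 3 and -2.85 without its replicate 1. Rab34, a Golgi and ciliary GTPase, fell from 163, 137 and 66.6 to 6.73, 7.24 and 2.00 at 48 hr in HET (-4.32 ± 0.64, adjusted p = 1.5e-05). In KO it fell from 119, 66.8, 115 and 83.3 to 6.74, 3.30 and 27.1 (-3.27 ± 0.60, adjusted p = 3.6e-04). At 24 hr the Rab34 change was -2.17 ± 0.64 in HET (adjusted p = 0.012) and -3.29 ± 0.60 in KO (adjusted p = 2.4e-04), and the first was lost without HET replicate 1 at 0 hr (adjusted p = 0.0566) or at 24 hr (adjusted p = 0.0877).

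Rab20, found on endosomes and phagosomes, was the member that fell at all 3 times in both genotypes. HET had 52.7, 71.8 and 46.5 at 0 hr, 39.2, 21.8 and 23.04 by 3 hr, then 6.58, 19.96 and 16.5 after 24 hr, with 8.97, 8.69 and 11.01 after 48 hr. KO had 42.9, 43.8, 61.9 and 50.9 at 0 hr, 19.3, 27.2 and 19.2 by 3 hr, then 14.1, 7.64 and 14.4 after 24 hr, with 8.09, 6.61 and 11.1 after 48 hr. Neither genotype overlapped its 0 hr range at any later time. The changes were -1.03, -2.02 and -2.44 in HET (SE 0.37) and -1.15, -2.0 and -2.42 in KO (SE 0.35), with adjusted p of 0.037 and 0.021 at 3 hr and at most 3.0e-04 later. The 3 hr call in HET was lost without HET replicate 1 or 2 at 0 hr or replicate 2 or 3 at 3 hr (adjusted p = 0.0715 to 0.139). The one in KO was lost without KO replicate 3 at 0 hr (adjusted p = 0.0559) or KO replicate 1 (adjusted p = 0.066) or 3 (adjusted p = 0.0781) at 3 hr. Rab6b, a paralog of Rab6a known from neurons, fell from 2118, 2166 and 1525 to 211, 732 and 1243 at 24 hr in HET (-1.73 ± 0.40, adjusted p = 0.0021) and from 1071, 1324, 1922 and 1525 to 581, 622 and 687 in KO (-1.18 ± 0.37, adjusted p = 0.020). Without HET replicate 1 at 24 hr the HET change was -1.003 (adjusted p = 0.0128). The KO call was lost without KO replicate 3 at 0 hr or replicate 1 or 2 at 24 hr (adjusted p = 0.0567 to 0.0664). Beside these falls, the DN3 and DN4 marker sum fell to 136755.4 to 251732.0 in HET and 93314.9 to 113670.1 in KO at 24 hr. The myeloid and dendritic sum in HET fell from 2022.3 to 2598.9 at 0 hr to 314.9 to 876.7 at 24 hr and 240.0 to 412.5 at 48 hr. In KO that sum was 646.7 to 1376.9 without the CD3 signal, 543.9 to 907.8 by 24 hr, then 294.2 to 532.5 after 48 hr. Most of the HET fall was in Lyz2, from 1654.2 to 2202.9 at 0 hr to 64.9 to 374.3 at 24 hr. Csf1r and Adgre1 were also lower in HET at 24 hr, and Cd68, Spi1 and Itgax overlapped their 0 hr range. Itgam instead rose by 24 hr, from 26.4 to 37.0 to 98.2 to 211.3 in HET and from 4.2 to 8.6 to 76.0 to 219.5 in KO. The part of these cells in the falls was not tested.

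Rab19, Rab37 and Rab43 rose by 24 or 48 hr, and Rab19 had already risen in HET by 3 hr. Rab19 in HET went from 45.7, 51.7 and 12.7 at 0 hr to 90.3, 301 and 236 by 3 hr, then 1594, 1678 and 521 after 24 hr, with 1129, 1032 and 1128 after 48 hr. In KO it went from 127, 153, 224 and 238 to 625, 312 and 370, then 1571, 1701 and 1646, then 1527, 1655 and 898. Every library at 24 and 48 hr was above every 0 hr library of either genotype. The log2 change was 2.53, 5.11 and 5.08 in HET (SE 0.49, adjusted p 5.2e-04, 1.7e-07 and 8.9e-08), and in KO 3.18 and 2.87 at 24 and 48 hr (SE 0.46, adjusted p = 2.1e-05 and 1.1e-04). Rab37, a GTPase of secretory granules, was 1181, 1207 and 924 at 0 hr in HET, 344, 679 and 980 by 3 hr, then 3531, 4566 and 1789 after 24 hr, with 3948, 4658 and 6360 after 48 hr. In KO it was 1036, 996, 1337 and 1029, then 973, 499 and 418, then 3677, 3491 and 4514, then 4144, 5418 and 1909. The changes were 1.48 ± 0.39 and 2.16 ± 0.39 in HET (adjusted p = 0.0061 and 1.5e-04) and 1.82 ± 0.37 and 1.68 ± 0.37 in KO (adjusted p = 6.5e-04 and 0.0019). The lowest library of the late groups was the one that stood apart in each case, 1789 and 1909. Rab43, which acts between the ER and Golgi, passed at 48 hr in HET (1.45 ± 0.34, adjusted p = 0.0016) and at 24 hr in KO (1.25 ± 0.31, adjusted p = 0.0041).

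**Figure D4:**
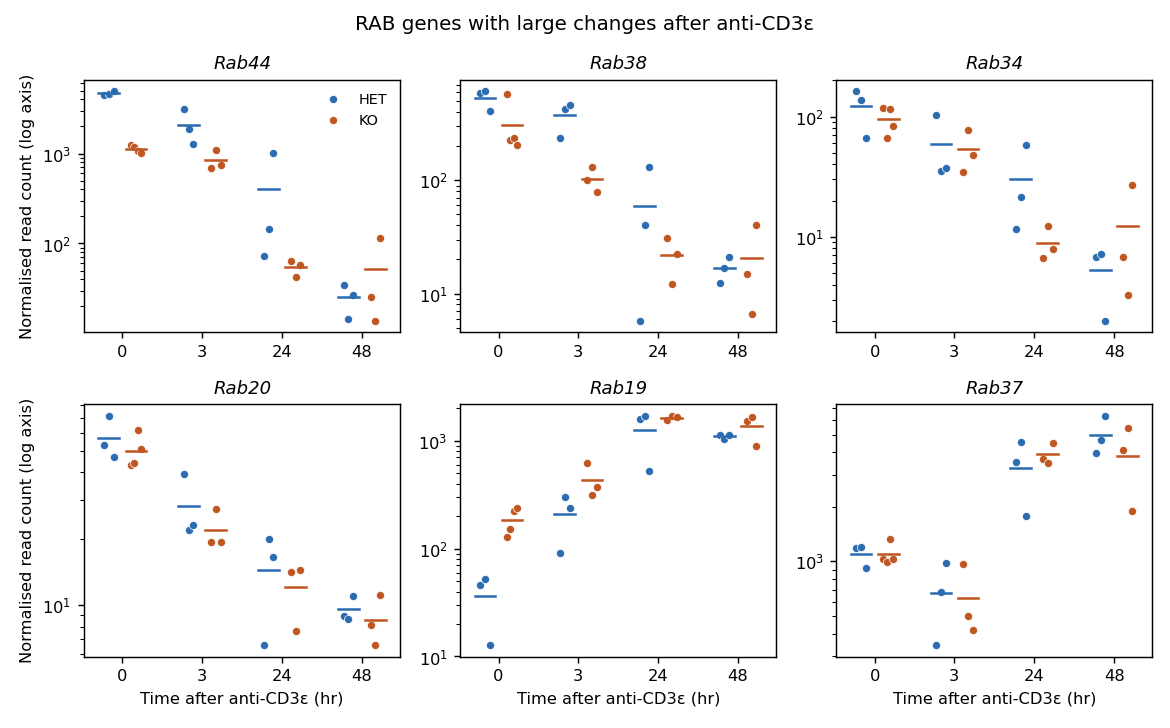
Normalised read count (vertical axis, log) of 6 RAB genes against time after anti-CD3ε in hr, with 1 point per mouse (HET blue, KO orange) and a bar at each group mean. The HET means of Rab44, Rab38, Rab34 and Rab20 are lower at each later time, while Rab19 and Rab37 are at their highest at 24 and 48 hr, and the HET point at 1003 in the Rab44 panel is the 24 hr library that stood apart.

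By 3 hr the largest changes were smaller than those at 24 and 48 hr, and the calls were spread over many compartments. The median absolute log2 change over the members was not smaller, at 0.455 in HET and 0.296 in KO. At 24 and 48 hr it was 0.335 and 0.374 in HET and 0.273 and 0.264 in KO. In HET, 6 of 14 ER and Golgi genes rose and none fell, or 5 without Rab30, which was kept only through KO. Of 8 early endosome genes 1 rose and 3 fell. Over all genes tested 18.4% rose and 18.5% fell. Rab19 (above) had the largest change past the threshold in HET. Rab6a rose by 1.23 ± 0.15 (adjusted p = 3.0e-06), from 1072, 1161 and 1308 to 2362, 2887 and 3097. Rab10 rose by 0.98 ± 0.12 (adjusted p = 2.4e-06), from 4728, 5080 and 5816 to 9558, 11063 and 10179. Rab30 rose by 1.51 ± 0.49 (adjusted p = 0.021), but only from 0 to 1.06 counts to 2.97 to 4.91, and the call was lost without HET replicate 1 at 0 hr (adjusted p = 0.111) or at 3 hr (adjusted p = 0.0649). In HET Rab3d fell by 1.38 ± 0.22 on the log2 scale (adjusted p = 6.9e-05), from 775, 830 and 928 to 368, 269 and 340. Rab31, of the early endosome, fell from 191, 148 and 168 to 107, 68.2 and 46.1 (-1.26 ± 0.29, adjusted p = 0.0023). None of these HET groups overlapped their 0 hr mice. Rab3d was back at 1047, 1477 and 851 by 24 hr.

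In KO at 3 hr the members with the largest changes past the threshold were Rab20 (above), Rab3a, Rab29 and Rab9. Rab3a rose from 81.6, 89.9, 101 and 78.4 to 136, 153 and 187 (0.84 ± 0.27, adjusted p = 0.025). Rab29, which recruits the kinase LRRK2 to the Golgi, fell from 516, 449, 508 and 539 to 327, 327 and 389 (-0.53 ± 0.17, adjusted p = 0.025). Rab9, which returns receptors from late endosomes to the Golgi and is X-linked, changed by -0.47 ± 0.16 (adjusted p = 0.040). The Rab3a call was lost without KO replicate 1 or 4 at 0 hr or replicate 2 or 3 at 3 hr (adjusted p = 0.0558 to 0.112). The Rab29 call was lost without KO replicate 1 or 4 at 0 hr or replicate 1 or 2 at 3 hr (adjusted p = 0.0525 to 0.0911). The Rab9 call was lost without KO replicate 1 or 2 at 0 hr or any replicate at 3 hr (adjusted p = 0.0704 to 0.134). Rab6a rose by 0.46 ± 0.14 (adjusted p = 0.021) and Rab10 by 0.47 ± 0.11 (adjusted p = 0.0039) in KO, from higher 0 hr levels than in HET. This Rab6a call was lost without KO replicate 2 at 0 hr or replicate 1 or 2 at 3 hr (adjusted p = 0.061 to 0.0685). At 3 hr 7 members passed in both genotypes, each in the same direction (Rab10, Rab20, Rab27a, Rab28, Rab29, Rab6a and Rab7), which is 7 of the 20 in HET and 7 of the 10 in KO. Over all genes tested the shares were 47.6% of the HET and 71.5% of the KO calls, with 99.9% in the same direction.

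Whether the response to CD3 itself differed between genotypes was tested by the interaction of genotype and time. No member passed by limma at 3, 24 or 48 hr against 0 hr, where 0.0707%, 0.658% and 1.36% of all genes passed. At an unadjusted p under 0.05 there were 8, 5 and 3 members. Without HET replicate 1 at 3 hr 1 member passed at 3 hr, and without the 3 libraries that stood apart 1 passed at 24 hr. edgeR called 0 members at each time, and DESeq2 called 1, 0 and 1. The DESeq2 calls were Rab6a at 3 hr, whose rise was smaller in KO by 0.78 ± 0.20 in the limma fit (DESeq2 adjusted p = 0.027, limma 0.15), and Rab19 at 48 hr, smaller in KO by 2.22 ± 0.68 (0.037 and 0.12). Rab44 at 48 hr differed by 2.58 ± 0.94 (limma adjusted p = 0.21), its fall being larger in HET, where it started higher. So a difference in response was not shown for any member by the main test, which leaves the size of these differences uncertain rather than 0.

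Levels of close paralogs were also compared within each library. Rab6a and Rab6b per kb stood at a ratio of 0.643 to 1.09 in HET and 1.52 to 3.26 in KO at 0 hr, and the ratio was 1.16 to 1.85 and 1.81 to 2.29 at 3 hr. By 24 hr it was 1.74 to 11.5 in HET and 5.35 to 6.33 in KO, and by 48 hr 2.26 to 3.52 and 2.91 to 4.80. Rab6b thus led slightly in 2 of the 3 unstimulated control mice, and Rab6a led in every other library. The ratio of Rab3d to Rab3a was 2.43 to 3.64 over both genotypes at 0 hr, 0.454 to 1.71 in HET and 1.07 to 1.35 in KO at 3 hr, and 2.37 to 5.04 at 24 and 48 hr. For Rab4b over Rab4a the ratio was 2.82 to 3.28 in HET and 3.41 to 5.49 in KO at 0 hr, without overlap, and 2.26 to 2.62 against 3.70 to 4.47 at 3 hr. It overlapped at 24 hr (2.43 to 2.75 and 2.39 to 3.67) and at 48 hr (2.90 to 3.36 and 3.28 to 4.75). The Rab8a to Rab8b ratio was 1.45 to 2.65 in HET and 1.05 to 1.16 in KO at 24 hr, and 1.06 to 2.04 and 0.505 to 0.933 at 48 hr. It overlapped at 0 hr (1.49 to 2.31 and 0.812 to 1.66) and at 3 hr (0.707 to 1.13 and 0.907 to 1.42). Rab27a exceeded Rab27b by at least 82.3 times in every library, and Rab5c exceeded Rab5a by 3.22 to 12.2 times and Rab5b by 1.85 to 5.38 times. At 0 hr the genotypes overlapped in the ratio of Rab5c to Rab5b (2.83 to 3.22 in HET and 3.07 to 3.46 in KO) and of Rab2a to Rab2b (6.21 to 7.18 and 6.11 to 7.99). These ratios are descriptions with no test of their own, and depend on how the counting program shared reads between similar genes.

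**Figure D5:**
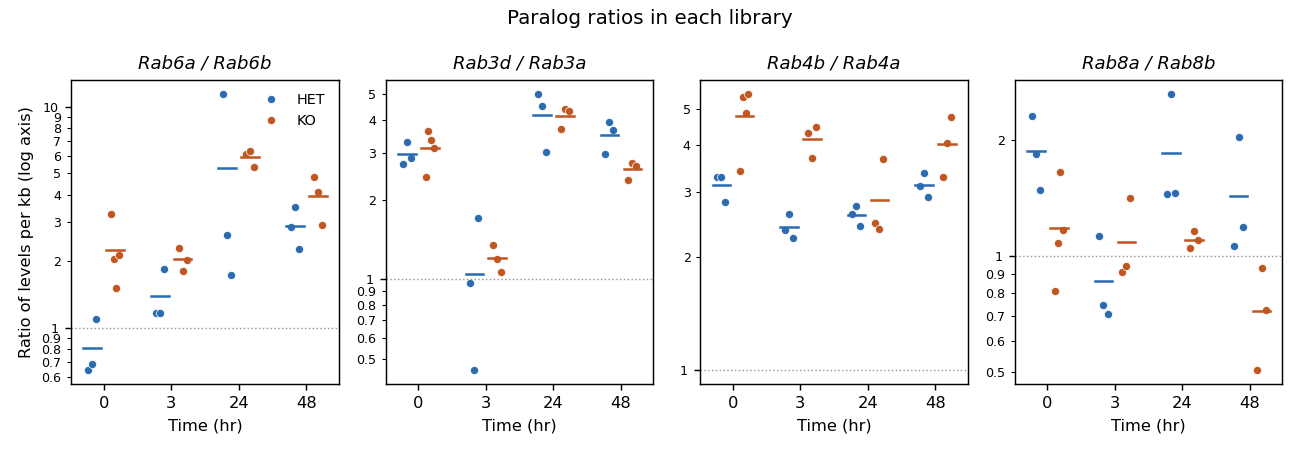
Ratio of 4 pairs of RAB paralogs in normalised count per kb of exon (vertical axis, log) against time after anti-CD3ε in hr, with 1 point per mouse (HET blue, KO orange), a bar at each group mean and a dotted line at 1. The Rab6a to Rab6b ratio is 0.643 to 1.09 in control mice at 0 hr and above 1 in all other groups, and the Rab3d to Rab3a ratio dips at 3 hr in both genotypes.

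The genes that act on RAB proteins were counted in the same fit. Of 129 tested, 16 were higher and 20 lower in KO at 0 hr (27.9%), 5 against 2 by 3 hr (5.43%), 12 against 3 by 24 hr (11.6%) and 7 against 17 by 48 hr (18.6%), where 22.1%, 9.18%, 12.5% and 13.1% of all genes tested passed. Exchange factors gave 5 higher and 6 lower of 37 at 0 hr and 1 and 6 at 48 hr, GTPase-activating proteins 5 and 8 of 39 and 4 and 6, and effectors 5 and 6 of 46 and 2 and 5. Of the 7 prenylation and membrane cycling genes 1, Chml, was higher at 0 hr and none passed at 48 hr. The examples named here and for the response to CD3 were chosen after their values were seen. Als2cl, related to a RAB5 exchange factor, was higher in KO by 2.95, 2.34 and 2.92 on the log2 scale at 0, 24 and 48 hr (adjusted p 4.5e-04, 0.0083 and 0.0018), and Sgsm2, which acts on RAB32, by 1.03, 0.89, 1.17 and 0.95 at the 4 times (adjusted p 3.8e-04 to 0.00465). Tbc1d16, which acts on RAB4A, differed by -1.89, -2.56 and -1.74 at 0, 24 and 48 hr (adjusted p 5.9e-05 to 0.0020), and Rab11fip4, an effector of RAB11, by -1.34, -2.67 and -1.19 (adjusted p 1.9e-06 to 0.0044). Unc13d, the Munc13-4 partner of RAB27A in granule priming, was lower in KO at 0 and 48 hr (-0.84 and -1.03, adjusted p = 0.0075 and 0.0049), where Rab27a was higher.

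After the CD3 signal 24 of the 129 rose and 19 fell in HET by 3 hr (33.3%), 19 against 30 by 24 hr (38%) and 40 against 23 by 48 hr (48.8%), where 37%, 33.9% and 42.4% of all genes passed. In KO 22 rose and 8 fell by 3 hr (23.3%), 31 against 20 by 24 hr (39.5%) and 31 against 15 by 48 hr (35.7%), where 24.7%, 30.4% and 26.8% passed. Of 37 exchange factors 8, 7 and 17 rose and 4, 5 and 4 fell in HET at 3, 24 and 48 hr, and 8, 10 and 14 rose and 1, 5 and 3 fell in KO. Among them Dennd1c, an exchange factor of RAB35, rose by 2.80 in HET and 2.85 in KO at 48 hr (adjusted p 2.5e-06 and 3.7e-06). Tbc1d8, a GTPase-activating protein, changed by -3.65 in HET and -2.79 in KO at 48 hr (adjusted p 2.7e-07 and 1.2e-05). Among effectors Mical1 rose by 1.86 and 1.65 (adjusted p = 1.2e-05 and 6.1e-05), and Sytl1, a partner of RAB27A, changed by -1.98 and -1.47 (adjusted p 1.6e-07 and 1.1e-05).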

How the data were processed

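The 25 libraries were polyA-selected and stranded, read as single ends. Per the labels and the submitters' processing notes the authors trimmed reads with Trimmomatic 0.36, aligned them to GRCm38 with STAR 2.5.2a, estimated counts with RSEM 1.2.31, which shares reads between similar genes, and divided them by DESeq2 1.18.1 size factors in R 3.4.1. The deposited signal values are these normalised counts. Whole reads were recovered by multiplying back, within 0.001 of whole numbers in all 25 libraries (in 2, HET replicate 2 at 3 hr and replicate 3 at 48 hr, the size factor is within 0.015 of 1, so steps test little there), and served for depth (22527777 to 57304830 reads) and counting intervals.

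The 14141 genes whose mean was 10 or more were tested with limma 3.58.1 on log2(value + 1), in R 4.3.3, with 8 group means, a variance trend, and Benjamini-Hochberg adjusted p-values taken comparison by comparison with a threshold of 0.05. Values after ± are SE. The test was checked on simulated data. Alternatives were other pseudocounts, filters and scalings, a replicate block, a lane term, leaving out libraries, edgeR 4.0.16 and DESeq2 1.42.0 on recovered reads. Named genes were every member called between genotypes and the 4 called members with the largest change at each time. Members, compartments and lists were chosen with earlier results of these data known. Symbols, coordinates and promoters are from RefSeq (GRCm38.p6), and exonic lengths from an NCBIM37 annotation.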

Additional observations from a re-analysis of the deposited data

Results flagged for a closer look

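In the KO group at 0 hr, the one group of 4 mice, the highest or lowest mouse of each of the 49 members was set against the others by Dixon's test, which chance passes in about 1 of 20 groups, and 4 members passed. Rab27a had its lowest library at 9968 normalised counts, against 11143 to 11232 in the other mice. Rab8a had its highest at 5081, against 4458 to 4486. Rab37 had its highest at 1337, against 996 to 1036. Rab38 had its highest at 578, against 205 to 235. The high library was replicate 3 for Rab8a and Rab37 and replicate 1 for Rab38, and the low one for Rab27a was replicate 2.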

How the results depend on the processing

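Of 60 named results, each a member in 1 comparison, 25 kept their call in every alternative run and none reversed. A term for sequencing lane ended 30 of the 60 calls, fits on only the groups compared 11, a replicate block 11, no filter on low values 7, a common upper quartile 6, a common total 3, leaving out the 3 libraries that stand apart 3, DESeq2, no trend and pseudocounts of 0.5 and 5 each 1, and edgeR 0. Counts of called members that moved by over 1.5 times were as follows. With the lane term 4 passed between genotypes at 0 hr and 2 at 48 hr. In HET 6 passed at 3 hr, and in KO 0, 6 and 4 at 3, 24 and 48 hr. Because all HET mice at 0 hr were in 1 lane and all KO mice in another, this fit rests on the later times. Its link between the lanes of 0 hr and those of 3 and 24 hr rests on KO replicate 3 at 48 hr alone. With only genes of a mean of at least 100, where fewer members are tested, 2 passed between genotypes at 3 hr and 5 at 48 hr, and on only the groups compared 2 and 3, for which the cause was not tested. With no filter on low values 6 passed in KO at 3 hr. Without the 3 libraries that stand apart 18 passed in KO at 48 hr and 1 in the interaction at 24 hr. DESeq2 called 1 interaction at 3 hr and 1 at 48 hr.

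Leaving out each library in turn gave 10 to 17, 3 to 5, 4 to 5 and 5 to 12 members between genotypes at 0, 3, 24 and 48 hr, 12 to 20, 7 to 14 and 12 to 19 in HET and 3 to 9, 10 to 12 and 6 to 15 in KO at 3, 24 and 48 hr, and 0 to 1, 0 to 0 and 0 to 0 interactions. Replicate numbers only name mice: 84 pairs of libraries with the same number had a median correlation of deviations of -0.019, and 7 of 25 libraries correlated best with their own number. With a replicate block 6 members passed in KO at 3 hr. Few reads limit Rab39b and Rab30, and 3 mice a group limit small differences.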
